A study of Mus musculus with 23 samples.

Results

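Cytosolic ribosomal protein genes were followed through 23 RNA-seq libraries of mouse mammary cells. The set held each symbol made of Rpl or Rps and digits with at most 1 trailing letter a, l or x, together with Rplp0, Rplp1, Rplp2 and Rpsa. It comprised 82 of the 24918 genes listed in any of 3 deposited expression tables. Of these, 76 core genes stood in every table, 46 of the large and 30 of the small subunit. The members ending in l, namely Rpl10l, Rpl39l, Rpl3l, Rps27l, Rps4l and, in the PY230 table only, Rpl32l, are described apart. The values are RPKM, which divides a gene's reads by its length and by the size of the library, so that levels of different genes can be set side by side within a table.

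The libraries formed 9 groups. Normal mammary glands of C57BL6J mice gave adult basal cells, adult mature luminal cells, adult luminal progenitors and fMaSC, the fetal mammary stem cells of embryonic day 18, with 2 libraries each. Tumours grown in syngeneic mice from transplanted cells of the mouse mammary tumour line PY230 gave basal SOX10 high, luminal SOX10 high and luminal SOX10 low cells, again as pairs of libraries. FVB mice of the C3-1-TAg line, in which a C3-1 promoter drives the SV40 T antigen, develop tumours of their own, which gave 9 libraries titled basal, 5 labelled SOX10 high and 4 SOX10 low. Each library came from about 2000 cells sorted by flow cytometry, and the sources used here do not give the sort gates. Libraries of a group are biological replicates by the series' design text, but the labels tie no library to an animal or tumour, so p-values measure only the spread between these libraries.

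Ribosomal proteins are the protein part of the cytosolic ribosome, and each subunit needs its own set in nearly equal amounts. Their mRNAs are among the most abundant of growing cells, and most begin with a C followed by a run of pyrimidines, the 5' TOP motif, through which mTOR signalling controls their translation. Mammalian genomes also hold many processed pseudogenes of these genes, copies of their mRNAs that can share long stretches of sequence with them. In the mammary gland, the demand for ribosomes is known to change with growth and with milk production.

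The first sequences shown are the opening 50 coding bases of some core genes, because the levels reported further on vary with how much of a gene's coding sequence recurs elsewhere. They are from the GENCODE M21 transcripts, 5' to 3', with the start codon in capitals. The opening stretches of Rps3 (chromosome 7) and Rpl8 (chromosome 15) were found in no other annotated gene or pseudogene. Those of Rps28 (chromosome 17) and Rps6 (chromosome 4) were found in 4 and 7 other genes or pseudogenes.
Rps3: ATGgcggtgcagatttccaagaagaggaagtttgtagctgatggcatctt
Rpl8: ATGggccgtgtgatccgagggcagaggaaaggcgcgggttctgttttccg
Rps28: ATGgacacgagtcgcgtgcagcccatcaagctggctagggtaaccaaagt
Rps6: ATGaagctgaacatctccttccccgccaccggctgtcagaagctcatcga

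Rps27 and its paralog Rps27l are shown because their values are reported apart. Their coding sequences of 252 bases, on chromosomes 3 and 9, differed at 60 positions and were 76.2% identical. The first 100 coding bases, from the same transcripts, hold 25 of the differences, which are in capitals.
Rps27: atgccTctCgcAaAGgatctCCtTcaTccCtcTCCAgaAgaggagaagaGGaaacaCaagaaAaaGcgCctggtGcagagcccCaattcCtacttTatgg
Rps27l: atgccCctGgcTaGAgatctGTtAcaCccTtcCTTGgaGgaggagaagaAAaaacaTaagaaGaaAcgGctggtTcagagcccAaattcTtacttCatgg

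A run of a C followed by at least 5 bases that are each C or T was searched on the gene's own strand, starting between 3 bases before and 4 bases after the annotated start. The promoter sequences were RefSeq's, build GRCm38.p6, and a gene was counted when any of its annotated starts held the run. The run was present in 25 of the 56 core genes with an entry (44.6%), in 4 of 69 mitochondrial ribosomal protein genes (5.8%) and in 2610 of all 27025 genes of the promoter table (9.66%). The 30 bases around the start are shown, with the run in capitals, for 4 members that changed in the comparisons given further on. These 4 all hold the run and do not stand for the members that changed. Rplp0, Rpsa, Rpl11, Rpl22 and Rps12 also changed and hold no run at any annotated start. Rpl38 lies at chr11:114668565-114668594 on the plus strand, Rpl35a at chr16:33056467-33056496 on the plus strand, Rps6 at chr4:86857353-86857382 on the minus strand and Rplp2 at chr7:141447636-141447665 on the plus strand. Rpl35a has 3 annotated starts, and the other two hold no run. A match describes these letters only and says nothing of whether the motif was used.
Rpl38: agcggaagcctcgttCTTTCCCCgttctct
Rpl35a: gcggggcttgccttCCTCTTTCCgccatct
Rps6: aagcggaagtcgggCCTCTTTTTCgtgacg
Rplp2: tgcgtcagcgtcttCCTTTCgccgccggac

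Some facts of the libraries bear on the values. A library held from 10056 to 12504 genes at 1 RPKM or more, and since the sources used here give no read totals, the absolute depth is unknown. Sox10 RPKM was higher in each library labelled SOX10 high than in each one labelled low, at 66.9 to 101.2 against 11.0 and 13.6 in PY230 luminal cells and at 91.9 to 164 against 2.10 to 40.9 in C3-1-TAg cells. Basal markers summed to between 799 and 1689 RPKM in basal cells and to at most 17.2 RPKM in both adult luminal groups. Pairs of C3-1-TAg libraries with different labels were alike. SOX10 high replicate 1 and SOX10 low replicate 2 correlated at 0.979 in their levels over 11948 genes and at 0.824 in their deviations from their group means, and SOX10 high replicate 2 and SOX10 low replicate 3 at 0.967 and 0.697. The labels do not say whether such libraries share a tumour, and C3-1-TAg results are therefore given with and without them. In these bulk libraries, fewer cells of a type and less RNA per cell cannot be told apart.

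Of the summed RPKM of a library, the core genes took 9.65% and 8.43% in basal cells, 9.94% and 9.93% in mature luminal cells, 7.57% and 9.98% in the luminal progenitor group, and 12.5% and 11.6% in fMaSC. The fMaSC libraries lay above all 6 adult libraries. The share depended on a few abundant transcripts: without the 20 most abundant other genes it was 11.4% and 10.2% in basal cells, 13.2% and 14.1% in mature luminal cells, 9.37% and 13.1% in the luminal progenitor group, and 13.7% and 12.7% in fMaSC, and fMaSC no longer stood apart. The nuclear RNAs Malat1 and Neat1 summed to between 19090 and 32350 RPKM in basal cells, to between 39570 and 73800 RPKM in mature luminal cells, to between 20860 and 24930 RPKM in luminal progenitors and to between 2926 and 3562 RPKM in fMaSC. RPKM is a share of the library, and the part of these RNAs in the ribosomal protein shares was not tested.

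The median core gene stood at 546 and 454 RPKM in basal cells, 539 and 554 RPKM in mature luminal cells, 365 and 522 RPKM in luminal progenitors, and 752 and 661 RPKM in fMaSC. Rplp0, the base of the stalk that binds elongation factors, was the highest core gene on average in normal cells, with a mean of 6031 RPKM over the 8 libraries. Rpl26, a large subunit protein near the exit of the peptide tunnel, was the only core gene below 10 RPKM in every normal library, at 1.39 and 4.81 RPKM in basal cells, 7.08 and 9.22 RPKM in mature luminal cells, 2.61 and 7.59 RPKM in luminal progenitors, and 6.43 and 5.6 RPKM in fMaSC. At the other end, 24 core genes were at 500 RPKM or more in every normal library, among them Rpl32, Rps3, Rpl4 and Rps16.

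**Figure D1:**
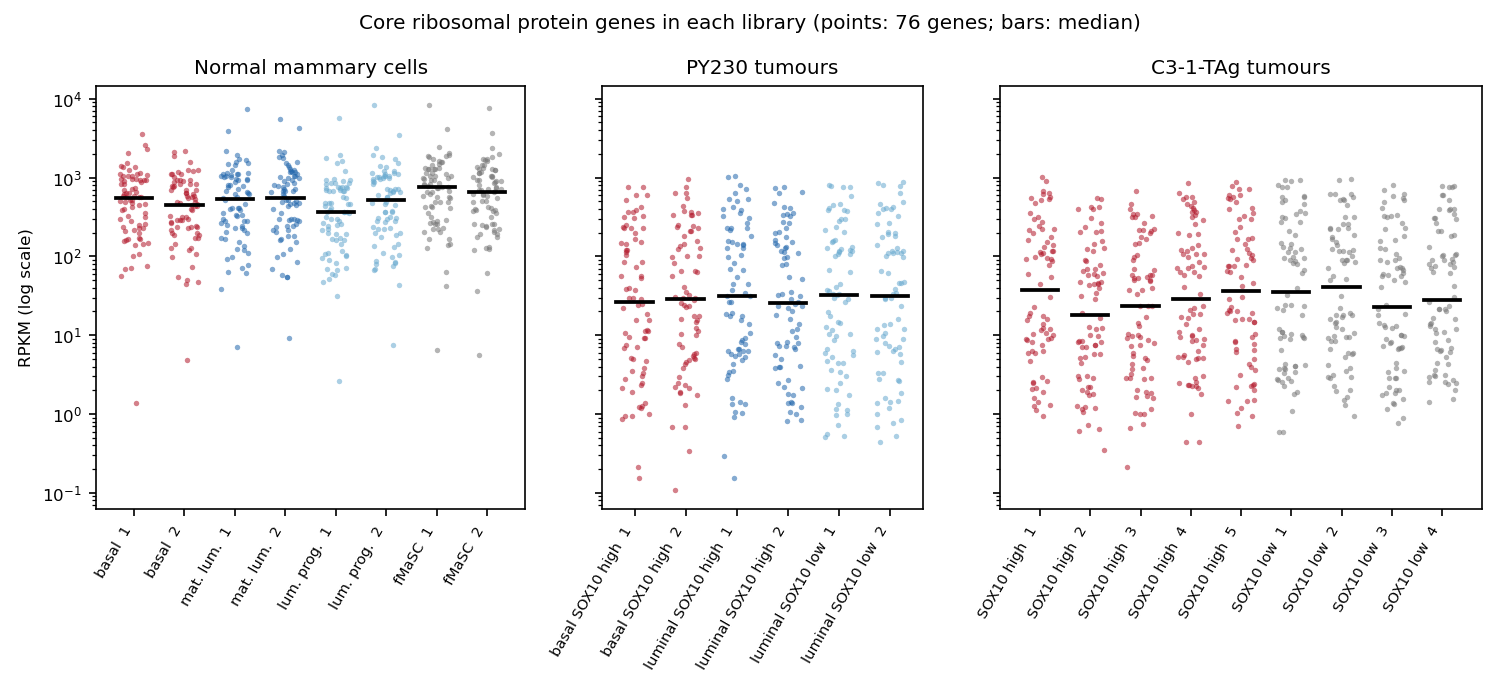
RPKM of the 76 core ribosomal protein genes (log axis) in each library of normal cells, PY230 tumours and C3-1-TAg tumours, with 1 point a gene and a bar at the library's median. The medians run from 365 to 752 RPKM in normal libraries, and tumour libraries hold many core genes below 10 RPKM. The 3 tables were made separately, so panels are not compared as levels.

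In the tumour tables the core genes spread much more widely. The median core gene stood between 25.8 and 32.6 RPKM in the 6 PY230 libraries and between 17.8 and 40.7 RPKM in the 9 C3-1-TAg libraries, and the core genes took 3.07% to 3.50% and 2.23% to 4.09% of the summed RPKM. In PY230 cells 21 core genes were below 10 RPKM in every library, and in C3-1-TAg cells 19. Of these, 12 were shared, which is 57.14% of the PY230 genes and 63.16% of the C3-1-TAg genes. They included Rpl24, Rps16, Rpl38 and Rps29, each a standard component of the ribosome. In PY230 cells Rpl4, Rpl8 and Rplp1 were at 500 RPKM or more in every library, and in C3-1-TAg cells no core gene was.

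Low levels in the tumour tables went with coding sequence that recurs elsewhere. For each core gene, the share of its 50-base coding windows that were found in another annotated gene or pseudogene was counted, and the median was 93.13%, with every window shared in 30 genes. Across the 76 core genes, Spearman's rho between this share and the mean level was -0.824 in PY230 cells and -0.715 in C3-1-TAg cells, against -0.209 in normal cells. With 75-base windows rho was -0.793, -0.733 and -0.184. These are correlations across genes, which are not independent replicates, and the points of a table share its libraries. Among mitochondrial ribosomal protein genes, whose median share was 0, rho was -0.071 in PY230 cells, -0.071 in C3-1-TAg cells and 0.097 in normal cells with 50-base windows, and -0.146, -0.115 and 0.015 with 75-base windows. Few of them share sequence, and the 4 with 75% or more of their windows shared had medians of 1.28 RPKM in PY230 cells, 1.13 RPKM in C3-1-TAg cells and 40.01 RPKM in normal cells, against 23.7, 16.7 and 37.9 RPKM for those under 25%.

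The 60 core genes with 75% or more of their windows shared had a median of 13.1 RPKM in PY230 cells and 13.7 RPKM in C3-1-TAg cells, against 577 RPKM in normal cells. The 4 core genes under 25% had medians of 701, 617 and 1216 RPKM. The tables were made separately, so these levels are set side by side without a test. Rps29, with every window shared, averaged 0.544 RPKM in PY230 cells, 0.887 RPKM in C3-1-TAg cells and 239 RPKM in normal cells. Rps3, with 8.09% of its windows shared, averaged 378 RPKM in PY230 cells, 238 RPKM in C3-1-TAg cells and 2068 RPKM in normal cells. Rpl41, the shortest member, went against the trend, with every window shared and means of 200.4, 387 and 295 RPKM, as did Rpl26, with 87.3% of its windows shared and means of 151, 76.2 and 5.59 RPKM. How the authors' software placed reads that match several genes is not stated in these sources, the tables also differ in cells, and the part of read placement in the low values was not tested. Low members of the tumour tables are for that reason uncertain, and all comparisons that follow are within a table.

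**Figure D2:**
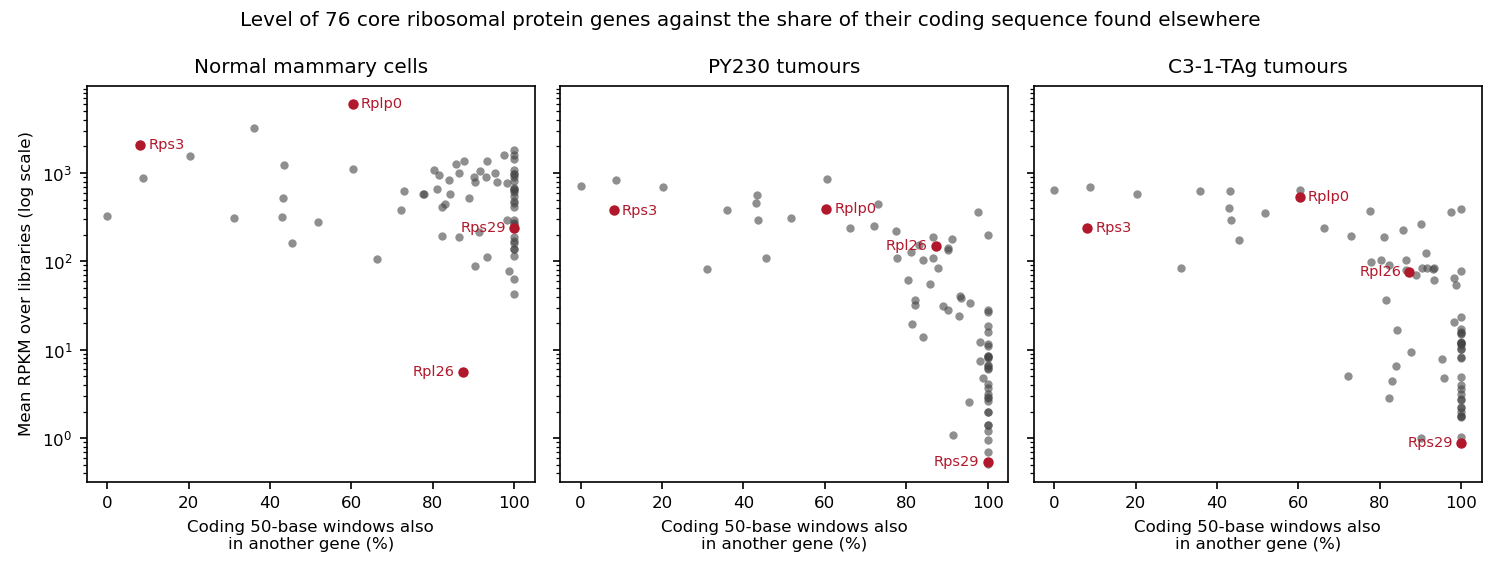
Mean RPKM over the libraries of a table (log axis) against the percent of a core gene's 50-base coding windows that are also found in another annotated gene or pseudogene, 1 point for each of 76 genes. In both tumour tables the lowest genes, Rps29 among them, have most or all of their windows shared, while in normal cells only Rpl26 lies below 10 RPKM in every library.

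Groups were compared with limma on log2(RPKM + 1), fitted over all genes of a table that reached 1 RPKM in 2 or more libraries (4 in the C3-1-TAg table), and a gene was called at a Benjamini-Hochberg adjusted p under 0.05 over all genes tested. Fold changes are on this log2(RPKM + 1) scale, which understates the change of low genes. All groups of a table share 1 estimate of the spread, so leaving out a library can end calls between other groups. All 76 core genes were tested in normal cells, 73 in PY230 cells and 74 in C3-1-TAg cells. The others stayed below the level required: Rpl27, Rpl28 and Rps29 in PY230 cells, and Rpl29 and Rps29 in C3-1-TAg cells.

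Against fMaSC, no core gene rose in any adult group, and those that changed were lower. In basal cells 21 of 76 core genes fell, while 36.9% of all 12553 genes tested fell and 23.4% rose. In luminal progenitors 30 core genes fell, against a background of 35.5% lower and 15% higher. In mature luminal cells 16 core genes fell, against a background of 41.7% lower and 14.7% higher. The 3 comparisons share the fMaSC libraries, in which the summed markers of red cells and fibroblasts stood above every adult library. The sums for other cell types did not. Red cell markers (5 genes) summed to 0 to 0.454 RPKM in basal cells, where 4 of them were at 0, to 2.83 to 9.40 RPKM in mature luminal cells, to 1.05 to 1.34 RPKM in luminal progenitors and to 260.1 to 333 RPKM in fMaSC. Fibroblast markers (6 genes) summed to 54.3 to 58.2 RPKM in basal cells, 7.26 to 25.5 RPKM in mature luminal cells, 13.5 to 24.5 RPKM in luminal progenitors and 82.9 to 99.7 RPKM in fMaSC. Fat cell markers (5 genes) summed to 65.8 to 233 RPKM in basal cells, 6.42 to 48.9 RPKM in mature luminal cells, 17.3 to 30.1 RPKM in luminal progenitors and 202 to 229 RPKM in fMaSC. In each adult group only 1 of these 5 genes reached 1 RPKM in any library, while all 5 did in fMaSC. Immune markers (7 genes) summed to 14.2 to 73.9 RPKM in basal cells, 12.8 to 14.5 RPKM in mature luminal cells, 58.9 to 62.3 RPKM in luminal progenitors and 10.3 to 12.2 RPKM in fMaSC. Endothelial markers (6 genes) summed to 8.43 to 44.7 RPKM in basal cells, 2.35 to 15.9 RPKM in mature luminal cells, 7.54 to 9.75 RPKM in luminal progenitors and 14.1 to 19.4 RPKM in fMaSC. The part of these markers in the falls was not tested. The shares of core genes that fell, 27.6%, 39.5% and 21.1%, lay below or near those of all genes, so the falls are not particular to the set.

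The median core gene had log2 fold changes against fMaSC of -0.41 for basal cells, -0.60 for luminal progenitors and -0.27 for the mature luminal group, and the medians of all genes tested were -0.27, -0.39 and -0.53. The scaling between libraries decided much of this. With median-of-ratios scaling 6 core genes fell in basal cells and 14 in luminal progenitors, while 2 fell and 7 rose in mature luminal cells, and the medians were -0.12, -0.18 and 0.25. The shares of all genes called with this scaling are not given here, so these counts are not read as particular to the set. Both fMaSC libraries mattered too: in the same order the medians were -0.34, -0.53 and -0.20 without fMaSC replicate 1, and -0.51, -0.66 and -0.34 without replicate 2. Fewer core genes were called without either of them, where fMaSC held a lone library.

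**Figure D3:**
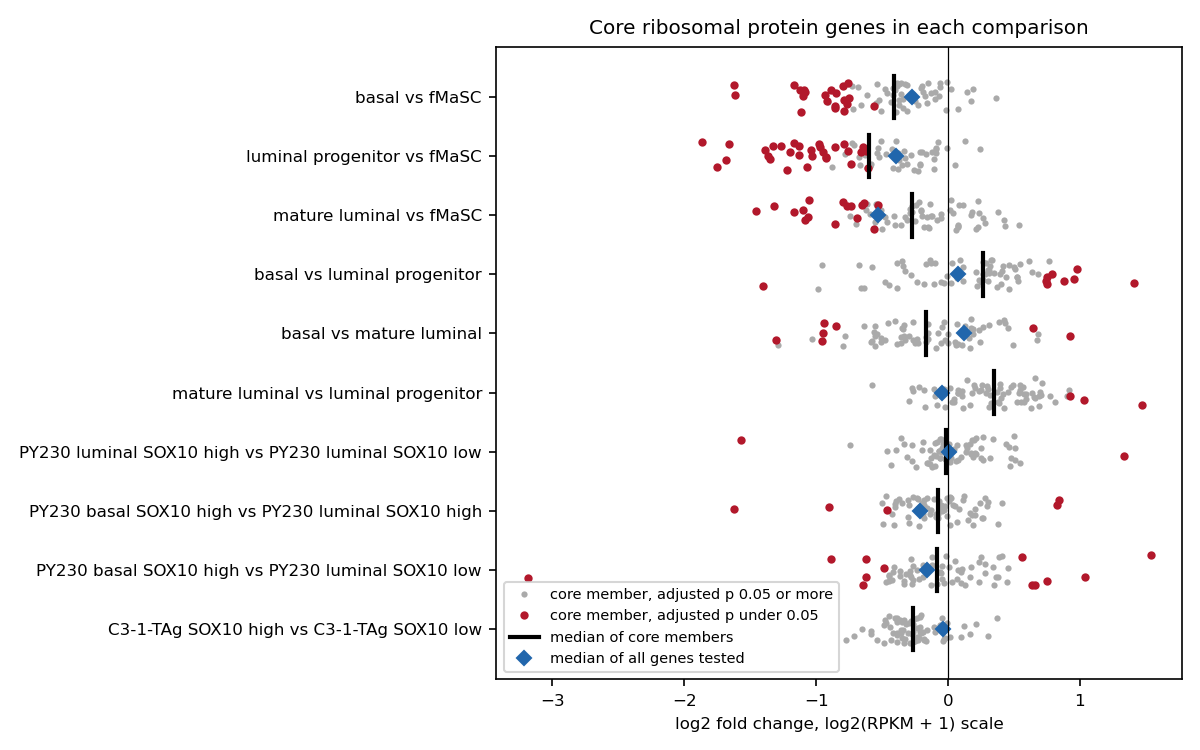
log2 fold change of each tested core gene in the 10 comparisons, on the log2(RPKM + 1) scale, with genes at an adjusted p under 0.05 in red, the core median as a black bar and the median of all genes tested as a blue diamond. Core genes called against fMaSC all lie below 0, and Rpl35a is the lone point near -3.19 in PY230 basal SOX10 high against luminal SOX10 low cells.

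The stalk genes did not move as one. Rplp0 measured 3597 and 1868 RPKM in basal cells, 7437 and 5517 RPKM in mature luminal cells, 5662 and 8268 RPKM in luminal progenitors, and 8272 and 7628 RPKM in fMaSC. Basal cells were below the other 3 groups without overlap. Rplp0 fell in basal cells against fMaSC (log2 fold change -1.62, SE 0.38, limma adjusted p = 0.00856), luminal progenitors (-1.40, SE 0.38, adjusted p = 0.0273) and mature luminal cells (-1.31, SE 0.38, adjusted p = 0.0258). Each of these calls was lost without either fMaSC library, and those among adult cells also with quantile scaling, with no filter, without basal replicate 2, and without luminal progenitor replicate 2 or either mature luminal library where that group was compared. However, relative to the median core gene of the same library Rplp0 was lower in basal cells under every alternative run, with differences of -1.11 against fMaSC, -1.59 against luminal progenitors and -1.17 against mature luminal cells.

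Rplp2, one of the acidic proteins that Rplp0 anchors, took a different order. It measured 100.1 and 129 RPKM in basal cells, 93.4 and 108 RPKM in mature luminal cells, 46.8 and 69.2 RPKM in luminal progenitors, and 165 and 133 RPKM in fMaSC. The lowest group was the luminal progenitors, with no overlap with any other group. Rplp2 fell there against fMaSC (-1.37, SE 0.25, adjusted p = 0.00339), under every alternative run. Its partner Rplp1 had log2 fold changes between -0.53 and 0.48 in the 6 normal comparisons and was called in none.

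Rpsa, the small subunit protein also known as the laminin receptor precursor, was highest in fMaSC. It measured 69.1 and 47.0 RPKM in basal cells, 61.4 and 55.2 RPKM in mature luminal cells, 68.2 and 75.5 RPKM in luminal progenitors, and 127 and 123 RPKM in fMaSC. No adult library reached either fMaSC library, and the adult groups differed from each other by less than the test could call. Rpsa fell in basal cells (-1.12, SE 0.21, adjusted p = 0.00339), in the mature luminal group (-1.09, SE 0.21, adjusted p = 0.00403) and in the luminal progenitor group (-0.79, SE 0.21, adjusted p = 0.0184). Only the call in basal cells held under every alternative run; that in mature luminal cells was lost with median-of-ratios or quantile scaling, and that in luminal progenitors with those scalings and without any library of either group.

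Other small subunit genes differed by cell type. Rps29, a short zinc-binding protein, measured 218 and 189 RPKM in basal cells, 172 and 218 RPKM in mature luminal cells, 96.7 and 145 RPKM in luminal progenitors, and 488 and 388 RPKM in fMaSC. It was lowest in luminal progenitors, where it fell against fMaSC (-1.87, SE 0.25, adjusted p = 0.000886), and it fell in mature luminal cells as well (-1.17, SE 0.25, adjusted p = 0.00633), though the second call was lost with median-of-ratios scaling and without fMaSC replicate 1. Rps12, which sits near the beak of the small subunit, stood at 165 and 170.1 RPKM in basal cells, against 78.8 and 97.8 RPKM in mature luminal cells, and was 1 of 2 core genes that rose there (0.93, SE 0.19, adjusted p = 0.00681, under every alternative run). Rps2, part of the mRNA entry channel, fell in basal cells against fMaSC (-1.62, SE 0.38, adjusted p = 0.00823), with 612 and 273 RPKM in basal cells and 1268 and 1249 RPKM in fMaSC, and that call was lost without either fMaSC library.

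Rps6, the substrate of the S6 kinases, had log2 fold changes of -0.48 for basal cells, -0.0041 for luminal progenitors and 0.08 for the mature luminal group against fMaSC, and none was called. The X-linked Rps4x and the ubiquitin fusion gene Rps27a were called in no normal comparison on this scale. In mature luminal cells against fMaSC, Rps25, which takes part in initiation at internal ribosome entry sites, fell with 520.3 and 524 RPKM in mature luminal cells and 1317 and 1291 RPKM in fMaSC (-1.32, SE 0.28, adjusted p = 0.00532). That call was lost without fMaSC replicate 1.

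Several short genes of the large subunit fell in luminal progenitors. Rpl38, a small protein required for the translation of a subset of Hox mRNAs in mouse embryos, measured 141 and 189 RPKM in basal cells, 122 and 151 RPKM in mature luminal cells, 71.5 and 97.9 RPKM in luminal progenitors, and 313 and 257 RPKM in fMaSC. It fell in luminal progenitors against fMaSC (-1.75, SE 0.25, adjusted p = 0.00101). Rpl41 fell there too (-1.69, SE 0.30, adjusted p = 0.00286), with 103 and 185 RPKM in luminal progenitors and 487 and 409 RPKM in fMaSC, as did Rpl39, which lines the peptide exit tunnel (-1.17, SE 0.21, adjusted p = 0.00329). The 3 calls in luminal progenitors held under every alternative run. Rpl41 and Rpl39 also fell in basal cells against fMaSC (-1.17 and -0.75, limma adjusted p = 0.0117 and 0.018). Both basal calls were lost with median-of-ratios scaling and without either fMaSC library. That of Rpl39 was also lost with quantile scaling and without basal replicate 2.

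Rpl5 and Rpl11, which with 5S rRNA form the particle that can bind Mdm2 and thereby steady p53, differed in their behaviour. Rpl5 ranged from 849 to 1059 RPKM over the 8 normal libraries and was called in no comparison. Rpl11 measured 499 and 447 RPKM in basal cells, 796 and 917 RPKM in mature luminal cells, 415 and 652 RPKM in luminal progenitors, and 839.7 and 769.6 RPKM in fMaSC. It fell in basal cells against fMaSC (-0.77, SE 0.25, adjusted p = 0.0308) and against mature luminal cells (-0.85, SE 0.25, adjusted p = 0.0252), and both calls were lost without either fMaSC library or without basal replicate 2. The first was also lost with median-of-ratios scaling and with no filter, and the second without either mature luminal library. Rpl7a, also of the large subunit, fell in mature luminal cells against fMaSC (-1.45, SE 0.32, adjusted p = 0.00668), a call lost without fMaSC replicate 2.

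**Figure D4:**
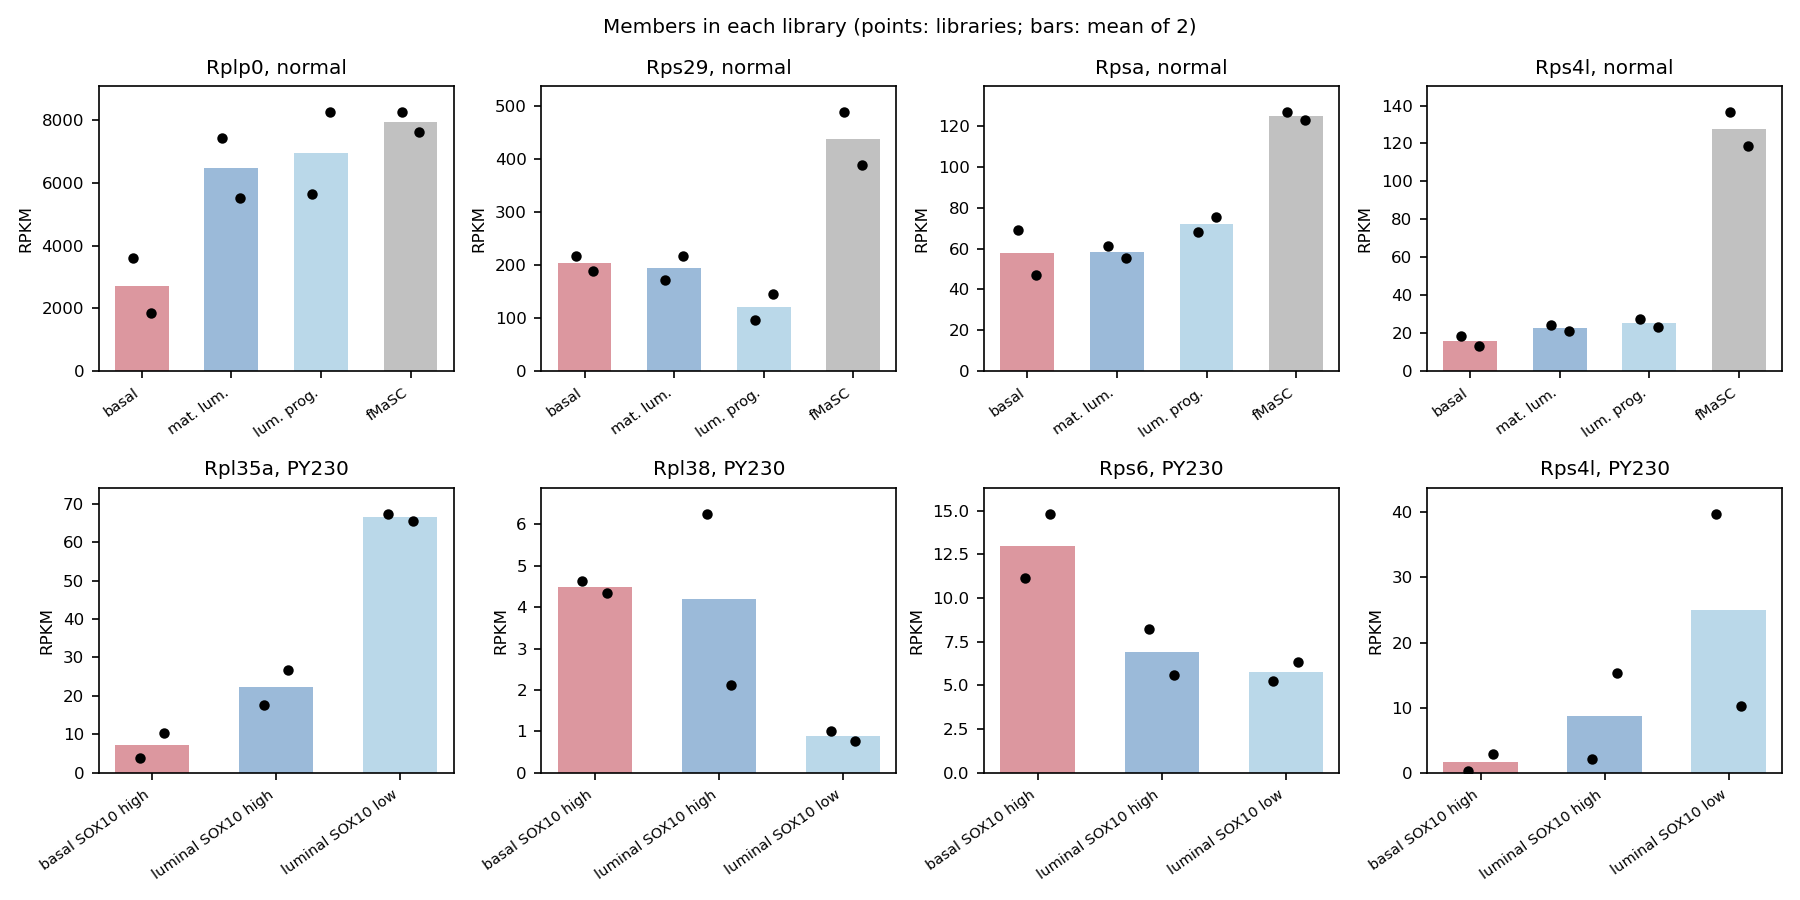
RPKM of 4 members in normal cells and 4 in PY230 cells, with each library as a point and the mean of 2 libraries as a bar on axes that start at 0. Basal libraries are lowest for Rplp0, fMaSC libraries are highest for Rps29, Rpsa and Rps4l, and Rpl35a is lowest in PY230 basal SOX10 high cells.

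Both l-ending members that were tested, Rps4l and Rps27l, fell in every adult group against fMaSC. Rps4l, which the annotation lists as a transcribed processed pseudogene related to Rps4x, measured 18.4 and 13.3 RPKM in basal cells, 24.3 and 21.0 RPKM in mature luminal cells, 27.7 and 23.4 RPKM in luminal progenitors, and 137 and 119 RPKM in fMaSC. It fell in basal cells (-2.95, SE 0.22, adjusted p = 7.47e-05), luminal progenitors (-2.28, SE 0.22, adjusted p = 0.000193) and mature luminal cells (-2.44, SE 0.22, adjusted p = 0.000107), each under every alternative run. Rps4x itself ranged from 767 to 1031 RPKM over the same libraries.

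Rps27l, a paralog of Rps27 that p53 can induce, measured 556 and 606 RPKM in basal cells, 569.9 and 667 RPKM in mature luminal cells, 491 and 555 RPKM in luminal progenitors, and 1132 and 1046 RPKM in fMaSC. It fell against fMaSC in basal cells (-0.90, SE 0.19, adjusted p = 0.00477) and luminal progenitors (-1.06, SE 0.19, adjusted p = 0.00294), both under every alternative run, and in mature luminal cells (-0.82, SE 0.19, adjusted p = 0.00787), which was lost with median-of-ratios scaling and without fMaSC replicate 1. Rps27 stood between 31.3 and 57.1 RPKM and was called in none of the 6 normal comparisons on this scale. Rpl10l, which replaces Rpl10 in mouse male germ cells, and Rpl3l, a striated muscle form of Rpl3, were listed at 0 in every normal library, and Rpl39l, known from testis, reached at most 1.005 RPKM, so these 3 were not tested.

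Among adult cells fewer core genes changed. Basal cells had 8 core genes higher and 1 lower than luminal progenitors, against a background of 21% higher and 14.5% lower. The largest rise was that of Rps21, a small subunit protein, with 165 and 235.03 RPKM in basal cells and 67.1 and 80.9 RPKM in luminal progenitors (1.41, SE 0.29, adjusted p = 0.00959). Basal cells had 2 core genes higher and 5 lower than mature luminal cells, against 28.8% higher and 19.8% lower. Rpl10, which joins the large subunit late and completes its catalytic centre, measured 708 and 434 RPKM in basal cells and 1096 and 1054 RPKM in mature luminal cells (-0.95, SE 0.28, adjusted p = 0.0268), a call lost without any 1 of 5 libraries and with quantile scaling or no filter.

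Mature luminal cells had 3 core genes higher than luminal progenitors and none lower, against a background of 8.63% higher and 13.4% lower. They were Rpl41, Rps28 and Rpl39. Rpl41 measured 334 and 442 RPKM in mature luminal cells and 103 and 185 RPKM in luminal progenitors (1.47, SE 0.30, adjusted p = 0.0139). All 3 calls were lost without either fMaSC library. Those libraries belong to neither group compared and enter only through the shared estimate of the spread. The core median stayed at 0.35 without either of them. Luminal progenitor replicate 1 weighed on the differences from that group. Without it the core median was -0.06 in basal cells, against 0.27 with all libraries, and 0.10 in mature luminal cells, against 0.35. Fewer core genes were then called, with a lone library left in that group.

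Fold changes that involved luminal progenitors followed gene length. Across the 76 core genes, Spearman's rho between log2 fold change and coding length was 0.676 in luminal progenitors against fMaSC, -0.787 in basal cells against luminal progenitors and -0.628 in mature luminal cells against luminal progenitors. In the comparisons without luminal progenitors it was -0.073, 0.243 and -0.346 in basal cells against fMaSC, mature luminal cells against fMaSC and basal against mature luminal cells. These correlations are across genes measured in the same libraries and are descriptions.

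The 38 core genes with coding sequences up to the median of 454.5 bases had a median log2 fold change of -0.95 in luminal progenitors against fMaSC, and the 38 longer ones -0.36. In basal cells against luminal progenitors the medians were 0.43 for the shorter and -0.10 for the longer genes, and in mature luminal cells against luminal progenitors 0.53 and 0.16. Mitochondrial ribosomal protein genes, 77 in number, gave rho of 0.312, -0.459 and -0.505 in the same 3 comparisons. The sign of rho was the same in both sets, so that short genes lay lower than long ones in luminal progenitors relative to the other group. The short mitochondrial genes were not lower in luminal progenitors than in basal cells in themselves, with a median log2 fold change of -0.20 in basal cells against luminal progenitors, beside -0.71 for the long ones.

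**Figure D5:**
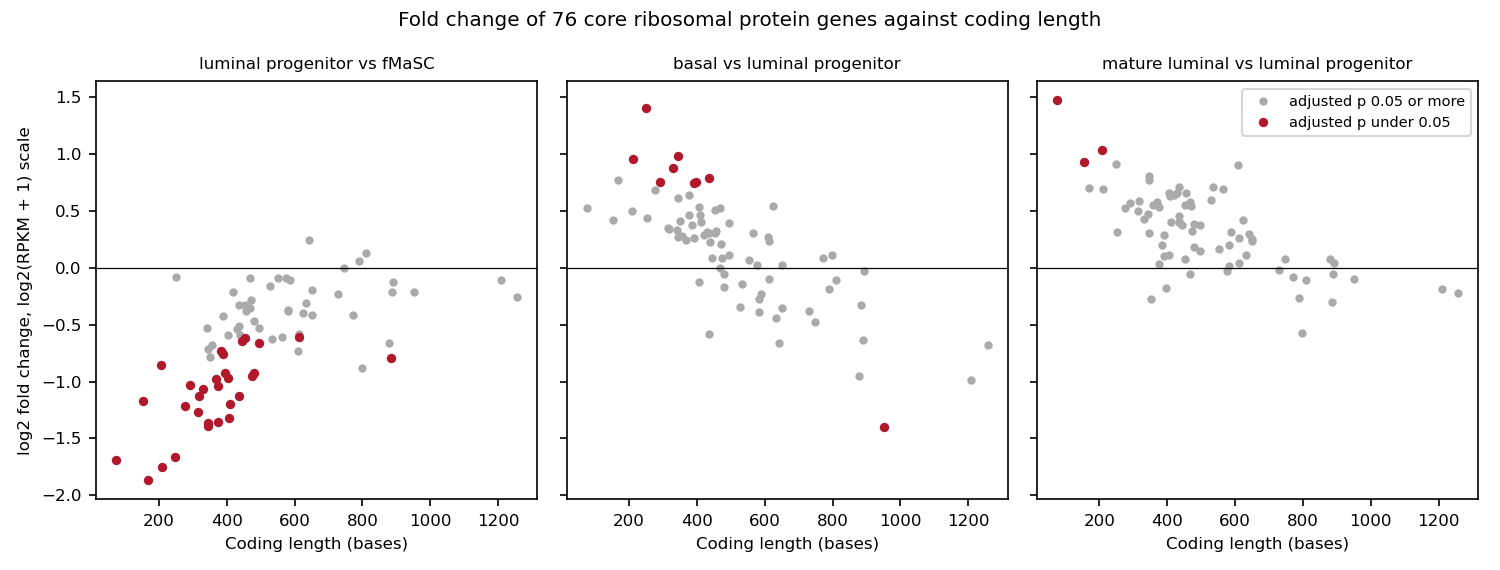
log2 fold change of the 76 core genes against coding length in bases in the 3 comparisons that involve luminal progenitors, with genes at an adjusted p under 0.05 in red. Short genes lie lowest in luminal progenitors against fMaSC (rho 0.676) and highest in basal (rho -0.787) and mature luminal cells (rho -0.628) against luminal progenitors.

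Scaling each library to its median core gene showed which members departed from the rest of the set. On this scale 1 core gene was higher and 2 lower in basal cells against fMaSC (all genes 29.7% and 20.7%), 4 higher and 5 lower in luminal progenitors (24.9% and 14.3%), and 5 higher and 3 lower in the mature luminal group (16.6% and 24.2%). Among adult groups, 1 was higher and 6 lower in basal cells against luminal progenitors (10.8% and 13.5%), 2 higher and 7 lower against mature luminal cells (26.2% and 12.2%), and 1 higher and none lower in mature luminal cells against luminal progenitors (3.19% and 14.8%). The member shares were below those of all genes in each of these directions. Each library was centred on the median of these same genes, so low member shares are in part built in and are not read as a result. Rpl10 was higher relative to the set in luminal progenitors (0.93, SE 0.26, adjusted p = 0.00816) and mature luminal cells (0.90, SE 0.26, adjusted p = 0.00917) against fMaSC. Both calls were lost without either fMaSC library, and the second without mature luminal replicate 1. Rpl3, at the catalytic centre of the large subunit, and Rps2 were lower relative to the set in basal cells against luminal progenitors (-1.17 and -1.14, adjusted p = 0.00816 and 0.0107), and neither held without luminal progenitor replicate 1.

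Other lists of ribosome genes were called in larger numbers. Mitochondrial ribosomal proteins build the separate ribosome of mitochondria, and against fMaSC 69 of 77 fell in basal cells, 62 in luminal progenitors and 68 in the mature luminal group, with medians of -1.72, -1.28 and -1.27. These are 89.6%, 80.5% and 88.3% of the list, where 36.9%, 35.5% and 41.7% of all genes fell. Mrpl42 measured 15.5 and 14.4 RPKM in basal cells, 15.6 and 13.1 RPKM in mature luminal cells, 15.9 and 16.7 RPKM in luminal progenitors, and 118 and 114 RPKM in fMaSC. Of 32 ribosome biogenesis genes, which make and process ribosomal RNA, 30 fell in mature luminal cells against fMaSC (all genes 41.7%) and 22 against luminal progenitors (13.4%), while 28 rose in basal against mature luminal cells (28.8%). Dkc1, which modifies ribosomal RNA, measured 21.8 and 31.9 RPKM in basal cells, 4.63 and 4.49 RPKM in mature luminal cells, 15.3 and 13.1 RPKM in luminal progenitors, and 41.0 and 42.0 RPKM in fMaSC. The core genes, by contrast, had median log2 fold changes of 0.35 in mature luminal cells against luminal progenitors and -0.27 against fMaSC.

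Myc, a transcription factor that drives ribosome synthesis, was lowest in mature luminal cells, with 2.27 and 1.47 RPKM there, and 27.4 and 18.1 RPKM in basal cells, 28.8 and 18.0 RPKM in luminal progenitors and 20.4 and 20.6 RPKM in fMaSC. It fell there against fMaSC (-2.92, SE 0.31, adjusted p = 0.000226). Myc is 1 of 12 listed regulators of ribosome synthesis and does not stand for that list. The 12 summed to 383 to 444 RPKM in basal and 440 to 525 RPKM in mature luminal cells. Their sums were 504 to 556 RPKM in luminal progenitors and 358 to 382 RPKM in fMaSC. Of 21 translation factors, 10 fell and 4 rose in basal cells, 7 fell and 4 rose in luminal progenitors, and 8 fell and 1 rose in mature luminal cells against fMaSC. In the order of these groups, 47.6%, 33.3% and 38.1% of the translation factors fell, against the 36.9%, 35.5% and 41.7% of all genes, so the last 2 shares were near the background. Of the 6 ribosomal proteins outside the symbol pattern, 3, 4 and 2 fell, among them Rpl22l1, the paralog of Rpl22, in each adult group. Of 14 p53 targets, 2 rose and 2 fell in basal cells, 3 rose and 2 fell in luminal progenitors, and 1 rose and 6 fell in mature luminal cells. The 42.9% that fell in mature luminal cells were also near the background of 41.7%, and the shares of p53 targets that rose, 14.3%, 21.4% and 7.14%, stood beside 23.4%, 15% and 14.7% of all genes.

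In PY230 tumours few core genes changed. Luminal SOX10 high cells had 1 core gene higher and 1 lower than luminal SOX10 low cells, where 12.6% of the 13136 genes tested were higher and 10% lower. Basal SOX10 high cells had 2 higher and 3 lower than luminal SOX10 high cells, against 13.8% and 28.2% of all genes, and 6 higher and 6 lower than luminal SOX10 low cells, against 21.8% and 33.4%. The medians over the core genes were -0.02, -0.07 and -0.08, with medians over all genes of 0.01, -0.21 and -0.16. The signs of both basal core medians turned with other scalings, to 0.12 and 0.04 with median-of-ratios. Markers of other cells moved too: those of fibroblasts summed to 183 to 307 RPKM in basal SOX10 high, 97.2 to 182 RPKM in luminal SOX10 high and 63.0 to 126 RPKM in luminal SOX10 low cells, and those of fat cells to 58.1 to 76.5 RPKM in basal SOX10 high, 7.14 to 10.3 RPKM in luminal SOX10 high and at most 6.498 RPKM in luminal SOX10 low cells. In every PY230 group only 1 of the 5 fat cell markers reached 1 RPKM in any library. Immune markers summed to 47.2 to 61.1 RPKM in basal SOX10 high, 47.3 to 66.5 RPKM in luminal SOX10 high and 19.2 to 27.7 RPKM in luminal SOX10 low cells. The part of these markers in the differences was not tested.

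Rpl35a, a large subunit protein mutated in some human patients with Diamond-Blackfan anaemia, had the largest fold change of the core genes tested. It measured 3.79 and 10.4 RPKM in PY230 basal SOX10 high cells, 17.7 and 26.8 RPKM in luminal SOX10 high cells, and 67.4 and 65.4 RPKM in luminal SOX10 low cells. The 3 groups did not overlap. It fell in basal SOX10 high cells against luminal SOX10 low cells (-3.19, SE 0.39, adjusted p = 0.0007, under every alternative run) and against luminal SOX10 high cells (-1.62, SE 0.39, adjusted p = 0.0172, lost without luminal SOX10 high replicate 2), and in luminal SOX10 high against low cells (-1.57, SE 0.39, adjusted p = 0.0345, lost without luminal SOX10 high replicate 1 or either low library, with no filter and when each library was scaled to the same sum). Of its 50-base coding windows, 82.2% recur in other genes.

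Rpl22, an RNA-binding large subunit protein needed for T cell development in mice, measured 53.4 and 63.3 RPKM in basal SOX10 high cells, 82.0 and 78.6 RPKM in luminal SOX10 high cells, and 108 and 109 RPKM in luminal SOX10 low cells. It fell in basal SOX10 high against luminal SOX10 low cells (-0.89, SE 0.13, adjusted p = 0.00161, under every alternative run). The 3 groups again did not overlap.

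Rpl38 and Rps6 went the other way, at low levels. Rpl38 measured 4.64 and 4.35 RPKM in basal SOX10 high cells, 6.26 and 2.13 RPKM in luminal SOX10 high cells, and 1.02 and 0.772 RPKM in luminal SOX10 low cells. It rose in basal SOX10 high (1.54, SE 0.37, adjusted p = 0.0114) and in luminal SOX10 high cells (1.33, SE 0.37, adjusted p = 0.0441) against luminal SOX10 low cells. The first call was lost without either basal library and the second without any 1 of 5 libraries and with quantile scaling or no filter.

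Rps6 measured 11.2 and 14.8 RPKM in basal SOX10 high cells, 8.24 and 5.62 RPKM in luminal SOX10 high cells, and 5.23 and 6.33 RPKM in luminal SOX10 low cells. Basal libraries were the highest, and both luminal groups overlapped. It rose in basal SOX10 high cells against luminal SOX10 low cells (1.04, SE 0.22, adjusted p = 0.0069) and against luminal SOX10 high cells (0.83, SE 0.22, adjusted p = 0.0234). Neither call held without basal SOX10 high replicate 2, nor the second without luminal SOX10 high replicate 2. Relative to the median core gene, 3 core genes were higher and 0 lower in luminal SOX10 high against low cells (all genes 15.8% and 3.85%), 4 higher and 1 lower in basal against luminal SOX10 high cells (14.7% and 22.5%), and 13 higher and 4 lower in basal SOX10 high against luminal SOX10 low cells (26.7% and 25.2%). On that scale the last comparison kept Rpl38 (1.71) and Rps6 (1.21) under every alternative run. Every 50-base window of Rpl38 and of Rps6 recurs in another gene or pseudogene.

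Rps27l and Rps4l varied in PY230 cells. Rps27l measured 71.8 and 77.4 RPKM in basal SOX10 high cells, 216 and 127 RPKM in luminal SOX10 high cells, and 83.7 and 105 RPKM in luminal SOX10 low cells. It fell in basal against luminal SOX10 high cells (-1.14, SE 0.26, adjusted p = 0.013), a call lost without either basal library. Rps4l measured 0.324 and 2.88 RPKM in basal SOX10 high cells, 2.06 and 15.4 RPKM in luminal SOX10 high cells, and 39.8 and 10.2 RPKM in luminal SOX10 low cells, a wide spread within each group. It fell in basal SOX10 high against luminal SOX10 low cells (-3.24, SE 0.95, adjusted p = 0.0251), a call lost with no filter and without basal SOX10 high replicate 1 or luminal SOX10 low replicate 1. Rpl32l, annotated as a processed pseudogene, reached at most 0.966 RPKM and was not tested.

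Of the mitochondrial ribosomal protein genes, 37 of 76 fell in PY230 basal SOX10 high against luminal SOX10 high cells and 35 of 76 against luminal SOX10 low cells, which is 48.7% and 46.1%, against 28.2% and 33.4% of all genes. Mrpl14 measured 24.7 and 23.1 RPKM in basal SOX10 high cells, 54.1 and 44.5 RPKM in luminal SOX10 high cells, and 57.1 and 61.5 RPKM in luminal SOX10 low cells. Of 32 ribosome biogenesis genes, 11 rose (34.4%, against 12.6% of all genes) and none fell in luminal SOX10 high against low cells, led by Polr1e, a subunit of RNA polymerase I (1.11, SE 0.16, adjusted p = 0.00897). Of 14 p53 targets, 7 rose (50%, against 21.8% of all genes) and 2 fell (14.3%, against 33.4%) in basal SOX10 high against luminal SOX10 low cells.

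In C3-1-TAg tumours 0 of 74 core genes were called between SOX10 high and low cells, where 0.0418% of the 11948 genes tested were higher and 0% lower in limma at an adjusted p under 0.05. At an unadjusted p under 0.05, 3 core genes (Rps26, Rps25 and Rps12) and 365 genes in all (3.05%) passed. The core median was -0.26, with 7 core genes above 0 and 67 below, and the median of all genes was -0.04. The library medians of the core genes varied with a pooled SD of 0.39 on the log2 scale within groups. That SD is the spread of single libraries, with the alike ones counted as separate, and the core median was not tested against it. Without SOX10 high 1 and SOX10 low 2 the core median was -0.32, without SOX10 high 2 and SOX10 low 3 it was -0.25, and without all 4 it was -0.34. With single libraries left out it ran from -0.39 without SOX10 low replicate 3 to -0.15 without SOX10 high replicate 2. With each of these, 0 core genes were called, as with every other alternative run. In no core gene tested did the groups stand apart without overlap. The share of all genes whose groups stood apart is not given here, so this is not read as particular to the set. Markers of other cells varied widely among these libraries: immune markers summed to 8.47 to 104 RPKM in SOX10 high and 11.2 to 1152 RPKM in SOX10 low libraries, and fibroblast markers to 4.22 to 362 RPKM in SOX10 high and 7.06 to 388 RPKM in SOX10 low libraries. Their part in the core median was not tested.

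Rps26, which contacts the mRNA upstream of the start codon, measured 241, 116, 144, 129 and 164 RPKM in SOX10 high and 276, 224, 221 and 210.3 RPKM in SOX10 low libraries. Only SOX10 high replicate 1 reached the range of the SOX10 low libraries. Rps25 measured 37.8 to 62.9 RPKM in SOX10 high and 50.3 to 92.5 RPKM in SOX10 low libraries, also with overlap. Rps27l ranged from 40.6 to 106 RPKM in SOX10 high and from 48.1 to 109 RPKM in SOX10 low libraries, with its highest value in each group in the alike libraries high 1 and low 2. Rps4l reached at most 0.908 RPKM and was not tested.

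The SOX10 high minus low difference was also set between the tumour models, each taken within its own table. For PY230 luminal cells minus C3-1-TAg cells, 0 of 73 members tested in both were called, while 270 of 11418 genes (2.36%) were. At an unadjusted p under 0.05, 7 members and 1806 genes in all passed. The differences with the smallest adjusted p were those of Rps25 (1.09, adjusted p = 0.0715) and Rpl38 (1.64, adjusted p = 0.0827). With both libraries of the pair high 1 and low 2 left out, 1 member was called, beside 1.92% of all genes. Without PY230 luminal SOX10 high replicate 2 more members were called than with all libraries, but that group then held a lone library.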

How the data were processed

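Per the labels' protocols, about 2000 sorted cells a library were amplified with SmartSeq2 (18 PCR cycles), made into Nextera XT libraries (10 further cycles) and sequenced single-end at 50 or 75 bases. The protocol keeps no strand and no molecular identifiers. The submitters' processing notes name FastQC, HISAT2 2.0.5, StringTie 1.3.1c and build mm9. The authors deposited RPKM values in 3 tables, one each for normal cells, PY230 and C3-1-TAg. The sources used here do not give the gene annotation, the handling of reads with several matches, the read length of each library or the read totals, so no interval for counting error can be given. Every value above 0 in the C3-1-TAg table was at least 2.001, and 2 was taken off those values. That this constant had been added is read from the values alone.

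The tests ran in R 4.3.3 with limma 3.58.1 on log2(RPKM + 1) with a trended prior, all groups of a table in 1 fit, after a filter of at least 1 RPKM in 2 libraries (4 for C3-1-TAg), with Benjamini-Hochberg adjustment over all genes tested. A second fit took off each library's median core gene. The difference between models is the difference of both limma estimates with their combined error. Tables were handled in Python 3.11.15 with pandas 2.3.3 and scipy 1.17.1. The main fit was tried on simulated data for the first comparison of each table only. The second fit, the replicate block and the difference between models were not tried in this way. Coding windows came from the GENCODE M21 transcripts and start sites from RefSeq (GRCm38.p6), and no coordinates were carried between builds. Sequences of Rpl17 and Rps14, and protein sequences, were not used here. Some results on single members are not reported here.

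The members and lists were chosen with earlier results of these data known. The text names, for each comparison, up to 4 called core genes with the highest and 4 with the lowest fold change, up to 3 each in the second fit, a fixed set in all comparisons (Rplp0, Rplp1, Rplp2, Rpsa, Rps6, Rps27a, Rpl5, Rpl11, Rps4x, Rpl10 and the paralogs with their nearest core gene) and the 2 called genes with the smallest adjusted p of every other list. Genes named for their level, Rps26 and Rps25 in C3-1-TAg cells and Dkc1 across normal groups were chosen after their values were seen. Alternatives were other scalings, a pseudocount of 0.1, no filter, a replicate block, the C3-1-TAg values as deposited and leaving out each library.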

Additional observations from a re-analysis of the deposited data

Results flagged for a closer look

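Rps27a, which encodes a ubiquitin fused to a small subunit protein, stood at 6.387 RPKM in C3-1-TAg SOX10 low replicate 4, far above the other 3 libraries of its group at 2.88 to 3.39 RPKM. The gap to its nearest neighbour made up 0.856 of the group's range, above the critical value of 0.829 for 4 samples. It was 1 of 34 groups of values examined in this way, and chance gives about 1 in 20. No member moved one way in every library of one tumour model and the opposite way in every library of the other. In C3-1-TAg cells the groups overlapped in all 74 core genes tested, so this check could find none of those and decides nothing about them.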

How the results depend on the processing

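With median-of-ratios scaling, the core genes called against fMaSC numbered 6 for basal cells, 14 for luminal progenitors and 9 for the mature luminal group, with medians of -0.12, -0.18 and 0.25, the last of opposite sign. The count was 4 for basal cells against luminal progenitors, 15 for basal against mature luminal cells (median -0.40) and 4 for PY230 luminal SOX10 high against low cells. PY230 basal medians turned to 0.12 against luminal SOX10 high and 0.0429 against luminal SOX10 low cells. Quantile scaling gave 12 called in basal against mature luminal cells (median 0.0808, reversed), 5 in mature luminal cells against luminal progenitors, a median of 0.0693 (reversed) in PY230 basal against luminal SOX10 low cells, and a log2 fold change of -1.15 for Rpl32 in mature luminal cells against fMaSC, where the deposited scale gave 0.06. Scaling every library to the same sum gave 14 called in basal cells against luminal progenitors, reversed medians of 0.0605 and 0.0944 in PY230 basal against luminal SOX10 high and low cells, and 1 member that differed between models, as did the C3-1-TAg values as deposited and leaving out C3-1-TAg SOX10 high 1 and low 2. With no filter, 2 core genes were called in basal against mature luminal cells and 0 in PY230 luminal SOX10 high against low cells. Relative to the median core gene, the same setting called 5 in mature luminal cells against fMaSC, 5 in basal against mature luminal cells and 7 in PY230 luminal SOX10 high against low cells, and a pseudocount of 0.1 called 5 in basal cells against fMaSC. Over the 16 core genes with under 75% of windows shared, the median in mature luminal cells against fMaSC was -0.51. For the counts within a table, the shares of all genes called under these settings are not given here. The cause of these shifts was not tested.

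The labels do not say whether replicate numbers pair the libraries. Deviations of same-numbered normal libraries correlated at 0.074 to 0.221 between adult groups and at 0.000 to 0.008 between adult groups and fMaSC. In the tumour tables the correlations were of both signs. With the replicate block, 3 core genes were called in PY230 basal against luminal SOX10 high cells on either scale. With crossed numbers for PY230 luminal SOX10 low, chosen after seeing the data, 4 core genes were called between the luminal groups, and 7 relative to the median core gene, with 9 in basal against luminal SOX10 high cells.

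Leaving out 1 library at a time gave against fMaSC 1 to 32 core genes called for basal cells, 12 to 38 for luminal progenitors and 3 to 22 for the mature luminal group, 1 to 16 in basal cells against luminal progenitors and likewise 1 to 16 against mature luminal cells, and 0 to 11 in mature luminal cells against luminal progenitors. In PY230 cells it gave 0 to 7 between luminal groups, 3 to 10 in basal against luminal SOX10 high and 5 to 20 against luminal SOX10 low cells, and in C3-1-TAg cells 0 throughout. Medians ran from -0.84 to -0.33 in luminal progenitors against fMaSC, -0.0566 to 0.49 in basal and 0.10 to 0.56 in mature luminal cells against luminal progenitors, -0.15 to 0.14 between PY230 luminal groups and -0.21 to 0.0102 in PY230 basal against luminal SOX10 high cells. Relative to the median core gene, the counts were 1 to 8 for basal cells, 0 to 14 for luminal progenitors and 0 to 12 for the mature luminal group against fMaSC, 1 to 13 and 2 to 11 in basal cells against luminal progenitors and mature luminal cells, 0 to 5 in mature luminal cells against luminal progenitors, and 0 to 5, 1 to 5 and 7 to 17 in the 3 PY230 comparisons. Between models, 0 to 4 members were called. A lone library left in a group was assumed to vary like the other groups. Shares of all genes called without each library are not given here, so these counts are not read as particular to the set.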
